A study of Mus musculus with 8 samples.

Results

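The genes *Il2*, *Tnf*, *Lta*, *Ltb*, *Csf1*, *Csf2*, *Tnfsf8*, *Tnfsf11*, *Tnfsf14* and *Il16*, which encode secreted and membrane-bound cytokines of activated T cells other than interferon gamma, were examined in IL-18Rαhi CD8+ T cells. They were taken by gene name from the deposited expression table, and 10 of 10 names were found once each among its 47493 genes. The study asked what distinguishes CD8+ T cells with a high level of IL-18Rα, the binding chain of the interleukin-18 receptor, from the other CD8+ T cells of the same mice. The 8 libraries came from 4 female C57BL/6 mice aged 6 to 8 weeks, and each mouse gave 1 IL-18Rαhi library and 1 flow-through library.

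Both fractions shared every treatment. On day 0 the mice received 200000 B16F10 cells, a mouse melanoma line, in the skin. Cyclophosphamide at 300 mg/kg followed on day 3, and 2000000 Thy1.1 Pmel-1 cells, T cells with a transgenic receptor for the melanoma antigen gp100, were transferred on day 5. Recombinant human IL-2 (10000 IU) was injected daily for 3 days from day 5, and anti-CD4 antibody (clone GK1.5, 200 μg) was injected weekly from day 10. On day 25, endogenous Thy1.1-negative CD8+ T cells were isolated from inguinal lymph nodes and spleen, and IL-18Rαhi cells were retained on a magnetic column by a labeled antibody. The cells that ran through the column were the control, so the flow-through is the remainder of the same preparation and not a population sorted for low IL-18Rα. No library came from mice without the antibody, the transfer or the tumor, and the labels name no restimulation before RNA extraction.

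T cells make little of most of these proteins at rest and more after their antigen receptor is engaged, when the calcium-dependent factor NFAT, NF-κB and AP-1 act on the genes. Most ligands of the TNF family are trimers made as membrane proteins, some of which are cut from the surface, and they signal to receptors on neighboring cells. The messenger RNAs of several cytokines carry AU-rich elements in their untranslated tails, to which proteins bind that shorten the life of the RNA.

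Levels are given as FPKM, the authors' fragment value scaled to transcript length and library depth. Differences were tested with limma on log2(FPKM + 1) over the 12166 genes that averaged 1 FPKM or more over the libraries, with p-values adjusted over all of them and a threshold of 0.05. All 10 cytokine genes reached that level, *Il2* and *Csf2* only through their values in the IL-18Rαhi libraries, since their flow-through means were under 1 FPKM. Of the 10 genes, 7 were higher in IL-18Rαhi cells (*Il2*, *Tnf*, *Lta*, *Csf1*, *Csf2*, *Tnfsf11* and *Tnfsf14*), and *Ltb*, *Tnfsf8* and *Il16* did not pass the threshold. None was lower, by the limma adjusted p or at an unadjusted p under 0.05. Among all genes tested, 14.1% were called higher and 13.7% lower. The median log2 fold change was 0.95 for the 10 genes and -0.02 for all genes tested. In a bulk RNA sample, more cells that make a cytokine cannot be told apart from more RNA per cell.

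**Figure D1:**
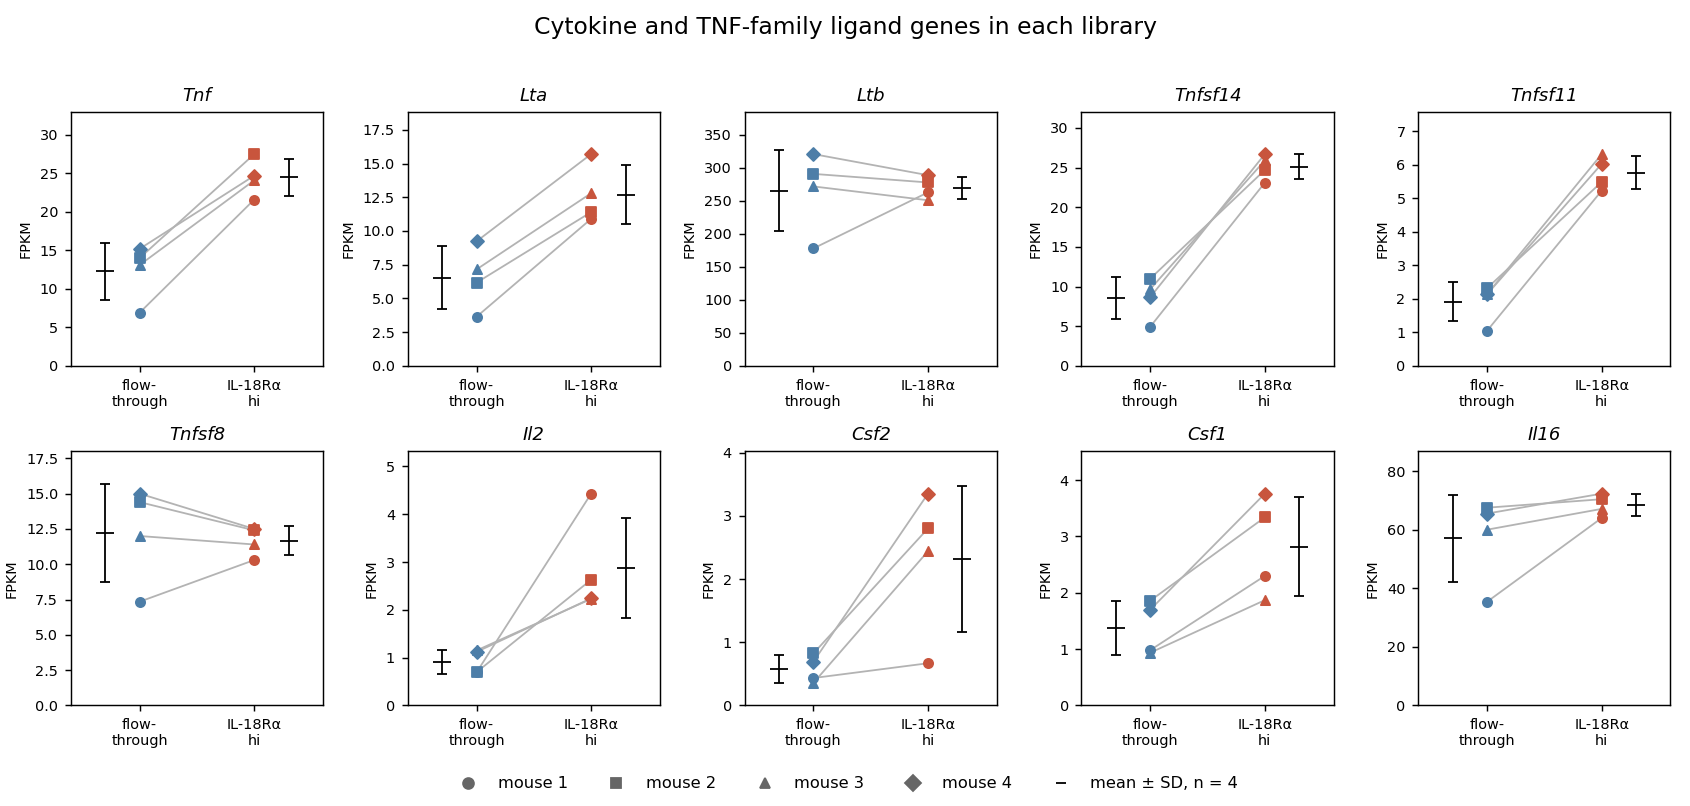
FPKM (y axis, linear from 0) of each of the 10 genes in the flow-through (blue) and IL-18Rαhi (red) library of each of 4 mice, with lines joining the libraries of 1 mouse and black bars for the mean ± SD of 4 libraries. The fractions do not overlap for *Tnf*, *Lta*, *Tnfsf14*, *Tnfsf11*, *Il2* and *Csf1*, and mouse 1 has the lowest flow-through value of *Tnf*, *Lta*, *Ltb*, *Tnfsf14*, *Tnfsf11*, *Tnfsf8*, *Il2* and *Il16*.

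One library stood apart in its T-cell identity genes. Flow-through replicate 1 had a summed level of 8 T-cell identity genes (*Cd3d*, *Cd3e*, *Cd3g*, *Cd247*, *Cd8a*, *Cd8b1*, *Lck* and *Zap70*) of 1280 FPKM, whereas the range was 2050 to 2430 FPKM in flow-through replicates 2 to 4 and 2400 to 2580 FPKM in the IL-18Rαhi libraries. Its summed level of 8 erythroid genes was 2760 FPKM, and that of flow-through replicates 2 to 4 was 897 to 1530 FPKM. In the IL-18Rαhi libraries of mice 1 to 4 the erythroid sum was 1500, 220, 629 and 254 FPKM. Mouse 1 thus had the highest erythroid sum in both fractions. Results are therefore also given without that library, and after T-cell scaling, in which each library was divided by the geometric mean of its 8 T-cell identity genes. T-cell scaling moved the median over all genes by -0.31 on the log2 scale, to -0.33. Estimated depth was 14677000 to 17805000 fragments per library and overlapped between the fractions. With the mouse as a block the same 7 cytokine genes were called higher, where 22.2% of all genes were. After T-cell scaling 4 were called (*Il2*, *Tnf*, *Tnfsf11* and *Tnfsf14*), against 4.46% of all genes, for which the split of calls moved from 1720 higher and 1664 lower to 542 and 1085. Without flow-through replicate 1 there were 5 (those 4 and *Lta*), against 14.1%.

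*Tnf* encodes the trimeric cytokine TNF, which binds the receptors TNFR1 and TNFR2. The flow-through libraries of mice 1 to 4 had 6.91, 14.0, 13.1 and 15.2 FPKM, and the IL-18Rαhi libraries had 21.6, 27.5, 24.1 and 24.7 FPKM. All IL-18Rαhi libraries thus lay above all flow-through libraries. The means were 12.3 ± 3.68 and 24.5 ± 2.41 FPKM (SD, n = 4 each), a ratio of 2.0, and the log2 fold change was 0.99 (adjusted p = 0.011 by limma, SE 0.21). The ratio within a mouse was lowest in mouse 4 (1.63) and highest in mouse 1 (3.13). The call held in each alternative fit, with a log2 fold change of 0.67 after T-cell scaling (limma adjusted p = 0.024).

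*Lta* encodes lymphotoxin α, a secreted homotrimer that uses the same receptors as TNF and that reaches the cell surface in a complex with lymphotoxin β. Its levels were 3.64, 6.17, 7.15 and 9.23 FPKM in the flow-through, compared with 10.9, 11.4, 12.8 and 15.7 FPKM in the IL-18Rαhi cells of mice 1 to 4. The fractions did not overlap, and in both of them mouse 1 was lowest and mouse 4 highest. The log2 fold change was 0.90 (adjusted p = 0.022 by limma, SE 0.23), from 6.55 ± 2.32 to 12.7 ± 2.14 FPKM. The call was lost after T-cell scaling (0.60, limma adjusted p = 0.052) and without IL-18Rαhi replicate 3 or 4 (limma adjusted p = 0.055 and 0.062).

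*Ltb* encodes lymphotoxin β, the membrane-anchored chain of the heterotrimer that engages the lymphotoxin β receptor. It had the highest level of the 10 genes, with 178, 291, 272 and 321 FPKM in the flow-through, compared with 263, 278, 251 and 289 FPKM in the IL-18Rαhi libraries. Apart from flow-through replicate 1, all libraries lay in a narrow range, and *Ltb* was higher in IL-18Rαhi cells in 1 of 4 mice. The means of 266 ± 61.4 and 270 ± 16.8 FPKM gave a log2 fold change of 0.06 (95% interval -0.33 to 0.44, adjusted p = 0.82 by limma, SE 0.17). The sign was not stable, at -0.12 without flow-through replicate 1 and -0.29 after T-cell scaling.

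The 3 genes lie side by side on chromosome 17 in the mm10 build (GRCm38). *Ltb* is at chr17:35194439-35196320 on the plus strand, *Tnf* at chr17:35199381-35202007 and *Lta* at chr17:35203165-35205351 on the minus strand, with 3060 bases between *Ltb* and *Tnf* and 1157 between *Tnf* and *Lta*. Of 20 annotated genes within 50000 bases of them, 10 averaged 1 FPKM or more. *Tnf* and *Lta* were called higher along with *Aif1* and *Lst1*, both of which are known mainly from myeloid cells. *Aif1* went from 3.55 ± 1.62 to 10.0 ± 2.94 FPKM (log2 fold change 1.32, adjusted p = 0.015 by limma, SE 0.30) and *Lst1* from 12.6 ± 4.63 to 22.4 ± 5.04 FPKM (0.82, adjusted p = 0.048 by limma, SE 0.26). *Lst1* was not past the threshold without flow-through replicate 1 (limma adjusted p = 0.055) or after T-cell scaling (0.10). The RNA helicase gene *Ddx39b* was lower (-0.30, adjusted p = 0.020 by limma, SE 0.08), and *Bag6*, *Prrc2a*, *Nfkbil1*, *Atp6v1g2* and *Ltb* did not pass. *Ltb* thus lay between *Lst1* and *Tnf*, both called higher, without a call of its own.

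**Figure D2:**
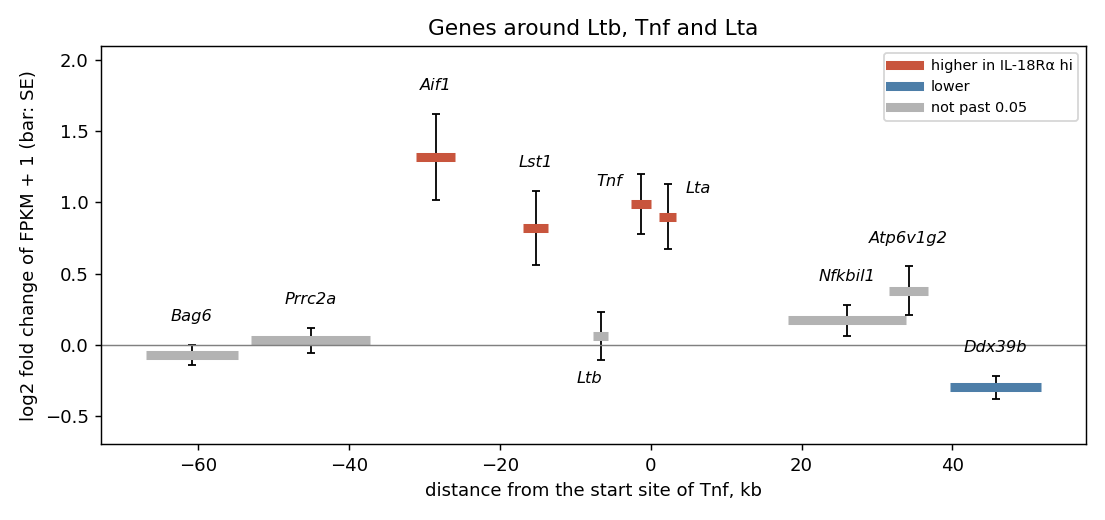
Log2 fold change of FPKM + 1 (y axis, IL-18Rαhi over flow-through, vertical bars are the SE) of the 10 genes at 1 FPKM or more around *Tnf*, against their distance from the start site of *Tnf* in kilobases, with horizontal bars as wide as the genes. *Aif1*, *Lst1*, *Tnf* and *Lta* are called higher and *Ddx39b* lower, and *Ltb* lies near 0.

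Since a ratio of genes within a library does not depend on how the library was scaled, *Ltb* was also set against *Lta*, its partner chain. The FPKM ratio of *Ltb* to *Lta* measured 49.0, 47.2, 38.1 and 34.7 in flow-through libraries and 24.1, 24.5, 19.6 and 18.5 in IL-18Rαhi ones. It was lower in IL-18Rαhi cells in 4 of 4 mice, and the fractions did not overlap. The means were 42.2 ± 6.93 and 21.6 ± 3.07 (SD, n = 4 each), a log2 difference of -0.96 (exact two-sided permutation p = 0.0286, the smallest that 4 libraries against 4 can give, and 0.0572 after adjustment over the 2 ratios examined). The adjusted value missed the threshold, and the exact two-sided sign-flip test within mice gave p = 0.125, its smallest possible value with 4 pairs. The ratio of *Tnf* to *Lta* averaged 1.91 ± 0.26 in flow-through libraries and 1.97 ± 0.347 in IL-18Rαhi ones, a log2 difference of 0.04 (exact two-sided permutation p = 0.771, adjusted 0.771).

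**Figure D3:**
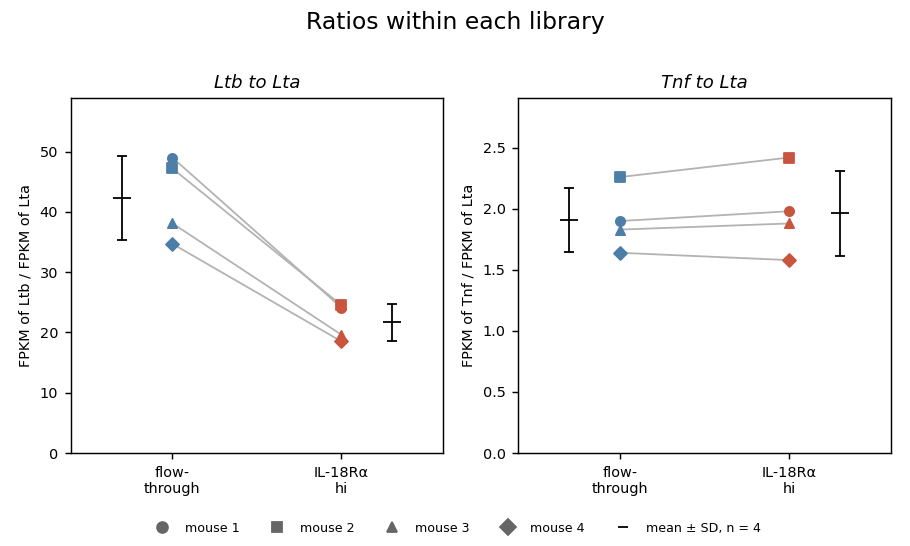
FPKM ratio (y axis, linear from 0) of *Ltb* to *Lta* and of *Tnf* to *Lta* in the flow-through (blue) and IL-18Rαhi (red) library of each mouse, with lines joining the libraries of 1 mouse and black bars for the mean ± SD of 4 libraries. The ratio of *Ltb* to *Lta* averages 42.2 and 21.6 and is lower in the IL-18Rαhi library of each mouse, whereas that of *Tnf* to *Lta* stays between 1.58 and 2.42.

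Among the other TNF-family ligands, *Tnfsf14* and *Tnfsf11* had the largest log2 fold changes of the 10 genes on the log2(FPKM + 1) scale. With a pseudocount of 0.1 *Csf2* was at 1.69, *Tnfsf14* and *Tnfsf11* were both at 1.60 and *Il2* was at 1.54. *Tnfsf14* (chr17:57189492-57194177, minus strand) encodes LIGHT, which binds HVEM on lymphocytes and the lymphotoxin β receptor on stromal cells. Its levels were 4.94, 11.0, 9.68 and 8.67 FPKM in the flow-through, compared with 23.1, 24.7, 25.9 and 26.7 FPKM in the IL-18Rαhi cells. The IL-18Rαhi libraries were all more than 10 FPKM above the highest flow-through library. The means rose from 8.57 ± 2.6 to 25.1 ± 1.55 FPKM, a ratio of 2.93 and a log2 fold change of 1.49 (adjusted p = 0.0020 by limma, SE 0.20), and the call held in each alternative fit, with 1.18 after T-cell scaling.

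*Tnfsf11* (chr14:78277445-78308043, minus strand) encodes RANKL, the ligand of RANK, which drives the formation of osteoclasts and acts on dendritic cells. It measured 1.05, 2.32, 2.14 and 2.14 FPKM in the flow-through, compared with 5.23, 5.49, 6.32 and 6.03 FPKM in the IL-18Rαhi libraries. Replicate 1 was far below the other flow-through libraries, and the fractions did not overlap. The log2 fold change was 1.24 (adjusted p = 0.0019 by limma, SE 0.16), with means of 1.91 ± 0.582 and 5.77 ± 0.494 FPKM, and it was 1.08 without flow-through replicate 1 and 0.99 after T-cell scaling, past the threshold in both.

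*Tnfsf8* (chr4:63831308-63861347, minus strand) encodes the CD30 ligand of activated T cells. Flow-through levels were 7.35, 14.4, 12.0 and 15.0 FPKM, and those of IL-18Rαhi cells were 10.3, 12.4, 11.4 and 12.5 FPKM. The libraries overlapped, and the gene was lower in IL-18Rαhi cells in the mice other than mouse 1. The log2 fold change was -0.02 (95% interval -0.47 to 0.43, adjusted p = 0.94 by limma, SE 0.20). In the flow-through *Tnf*, *Tnfsf8*, *Tnfsf14* and *Lta* formed a run of overlapping levels in that order, whereas in IL-18Rαhi cells every library had more *Tnfsf14* and more *Tnf* than any library had *Tnfsf8*.

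*Il2* (chr3:37120523-37125959, minus strand) encodes interleukin-2, the growth factor of activated T cells. Its levels were 0.691, 0.696, 1.15 and 1.12 FPKM in the flow-through, compared with 4.43, 2.63, 2.23 and 2.24 FPKM in the IL-18Rαhi libraries. The fractions did not overlap, and mouse 1 had both the lowest flow-through and the highest IL-18Rαhi value. The ratio of means was 3.16, and the log2 fold change was 1.00 (adjusted p = 0.0077 by limma, SE 0.19). The call held in each fit that kept the gene, with 0.79 after T-cell scaling. Roughly 13 to 20 fragments stood behind the flow-through values and 38 to 89 behind the IL-18Rαhi values, as estimated from depth and transcript length. The injected human IL-2 is a protein and adds no RNA of the mouse gene.

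*Csf2* (chr11:54247271-54249667, minus strand) encodes GM-CSF, a growth and activating factor of granulocytes, macrophages and dendritic cells. It reached 0.434, 0.823, 0.356 and 0.692 FPKM in the flow-through, compared with 0.668, 2.80, 2.44 and 3.35 FPKM in IL-18Rαhi cells. IL-18Rαhi replicate 1 lay within the flow-through range, and the others lay well above it. The ratio of means was the largest of the 10 genes at 4.02, and the log2 fold change was 1.00 (adjusted p = 0.035 by limma, SE 0.29). An estimated 4 to 12 fragments stood behind the flow-through values and 9 to 40 behind the IL-18Rαhi values. The call was lost without any 1 of flow-through replicates 1, 3 and 4 (limma adjusted p = 0.064, 0.093 and 0.057) or IL-18Rαhi replicates 2, 3 and 4 (0.096, 0.085 and 0.093), and after T-cell scaling (0.068).

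*Csf1* (chr3:107741048-107760469, minus strand) encodes M-CSF, the growth factor of the monocyte and macrophage lineage. It measured 0.982, 1.86, 0.936 and 1.70 FPKM in the flow-through, compared with 2.30, 3.34, 1.87 and 3.76 FPKM in the IL-18Rαhi libraries. The fractions were adjacent but did not overlap, and the ratio within a mouse varied little, from 1.80 to 2.34. The log2 fold change was 0.68 (adjusted p = 0.042 by limma, SE 0.21). The call was lost without flow-through replicate 1 or 3 (limma adjusted p = 0.08 and 0.11), without IL-18Rαhi replicate 1, 2 or 4 (0.054, 0.11 and 0.11) and after T-cell scaling (0.13).

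*Il16* (chr7:83642825-83745726, minus strand) encodes a precursor protein that is stored in lymphocytes and cut to release interleukin-16, an attractant of CD4+ cells. Its levels were 35.4, 67.5, 60.0 and 65.5 FPKM in the flow-through, compared with 64.0, 70.4, 67.1 and 72.3 FPKM in the IL-18Rαhi cells. It was higher in IL-18Rαhi cells in 4 of 4 mice, but outside mouse 1 the ratio within a mouse was only 1.04 to 1.12. The log2 fold change was 0.30 (95% interval -0.13 to 0.73, adjusted p = 0.27 by limma, SE 0.19), and it was -0.04 after T-cell scaling. *Il16* overlaps *Stard5* on the other strand (mean 6.78 FPKM), and Cufflinks at its defaults does not use strand, so reads of both genes may have been shared.

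Set side by side, 6 of the 10 genes had no overlap between the fractions with IL-18Rαhi higher (16.4% of all genes tested), and 8 were higher in 4 of 4 mice (29.2%). Levels per length kept *Ltb* and *Il16* in the lead in both fractions, separate from each other and from the rest. At the low end, *Tnfsf11*, *Csf1*, *Il2* and *Csf2* overlapped with their neighbors in the flow-through. In IL-18Rαhi cells *Tnfsf11* lay above *Il2*, *Csf1* and *Csf2* in every library, and those 3 overlapped. The study's listing criteria, applied with the limma adjusted p, ask for 5 FPKM in IL-18Rαhi cells, a ratio of means of 3, every IL-18Rαhi library above the flow-through mean plus 3 SD, and an adjusted p under 0.001. They were met singly by 7, 3, 3 and 0 of the 10 genes, so that 0 met them all. *Tnfsf11* met all but the last, with a limma adjusted p of 0.0019, or 0.0007 with the mouse as a block. The count of 0 thus depends on the fit, and on limma in place of the study's own p- and q-values. Shares of all genes that meet these criteria are not given.

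**Figure D4:**
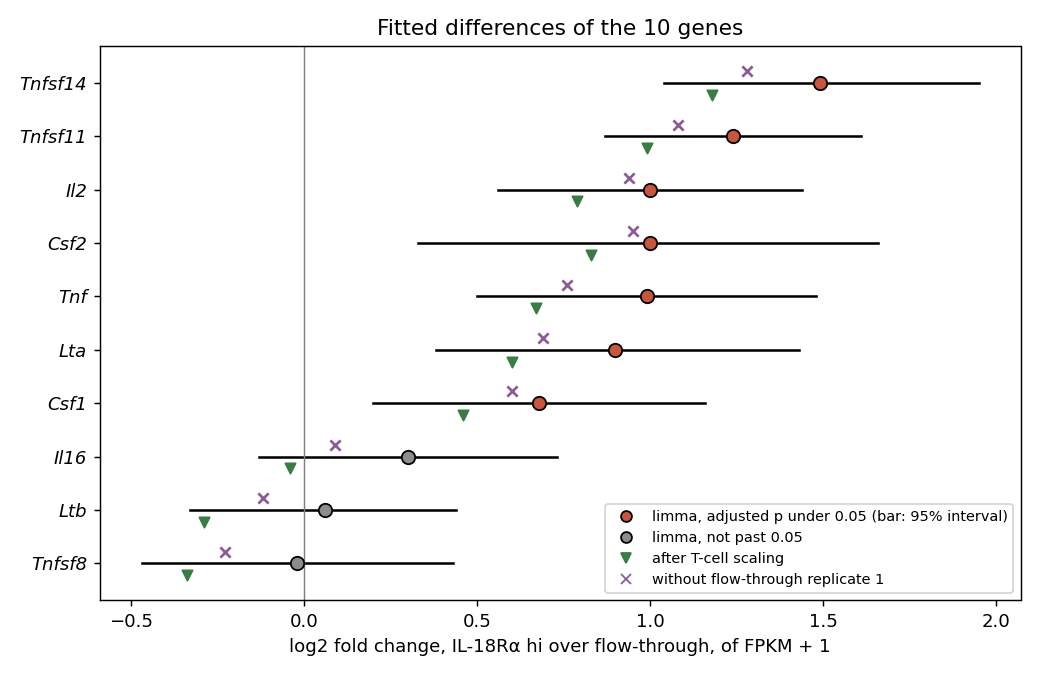
Log2 fold change of FPKM + 1 (x axis, IL-18Rαhi over flow-through) of the 10 genes, with circles for the limma fit over 8 libraries, bars for its 95% interval, triangles for T-cell scaling and crosses for the fit without flow-through replicate 1. The 7 genes called higher (red) keep a positive value in all 3 fits, whereas *Il16*, *Ltb* and *Tnfsf8* (grey) have intervals that include 0 and are below 0 after T-cell scaling, as *Tnfsf8* is in all 3 fits and *Ltb* also without flow-through replicate 1.

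The promoters of the genes were read from RefSeq (GRCm38.p6) as the 250 bases before the start site, and 4 short motifs were sought on both strands. The NFAT core GGAAA was present in 10 of 10 genes, and in 55.6% of the 32851 promoters in the table. The NF-κB letters GGGNNNNNCC, some of whose matches overlap an NFAT core, were present in 8 genes (45.8% of promoters), the AP-1 letters TGANTCA in *Tnfsf14* and *Il16* (6.75%) and TATAAA in 4 genes (12.4%). The TATAAA of *Il2*, *Tnf* and *Tnfsf11* began 31, 29 and 32 bases before the start site, and that of *Lta* 167 bases before it. *Il16* has 3 promoters in the table, and a match in any of them was counted. Next to the RefSeq start, 68 bases of the *Ltb* window, 63 of *Tnfsf8*, 9 of 1 *Il16* window and 5 of *Il2* are annotated as exon. The NF-κB matches of *Ltb* that began 40, 39 and 38 bases before the start lie in that part, and the match at 87 does not. The 5 exon bases of *Il2* are not printed. The RefSeq start of *Csf2* lies upstream of its start in the gene annotation, so its window may lie away from the promoter, and without it the NFAT core was present in 9 of 9 genes and the other counts were the same. A match is a run of letters and was not tested as a site of binding. The promoters of *Il2*, *Tnf* and *Tnfsf14* are shown, the first for its place among T-cell cytokines, the second for the TNF locus and the third for its AP-1 letters. All are on the minus strand, at chr3:37125960-37126204, chr17:35202008-35202257 and chr17:57194182-57194431, and capitals mark the NFAT core in either orientation.
Il2: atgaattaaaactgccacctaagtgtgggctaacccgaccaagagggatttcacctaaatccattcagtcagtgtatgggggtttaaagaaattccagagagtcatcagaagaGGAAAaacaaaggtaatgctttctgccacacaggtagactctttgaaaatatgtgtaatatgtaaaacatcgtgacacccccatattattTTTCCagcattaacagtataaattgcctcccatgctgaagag
Tnf: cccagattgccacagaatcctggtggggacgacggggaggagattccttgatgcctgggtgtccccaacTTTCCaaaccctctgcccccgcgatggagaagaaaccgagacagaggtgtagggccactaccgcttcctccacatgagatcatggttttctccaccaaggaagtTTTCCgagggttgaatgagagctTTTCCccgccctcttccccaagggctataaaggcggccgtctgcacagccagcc
Tnfsf14: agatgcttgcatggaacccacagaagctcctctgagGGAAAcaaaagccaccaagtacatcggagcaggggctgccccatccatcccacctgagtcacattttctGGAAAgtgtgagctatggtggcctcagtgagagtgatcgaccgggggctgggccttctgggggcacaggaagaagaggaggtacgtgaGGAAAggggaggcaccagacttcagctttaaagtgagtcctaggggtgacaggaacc

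The NFAT core occurred 2 times in the *Il2* stretch and 3 times in each of the others, and the AP-1 letters of *Tnfsf14* began 160 bases before the start. In the untranslated tails (GENCODE M21), the AU-rich pentamer ATTTA was found in 8 of the 10 genes and in 69.2% of 10872 genes tested for expression, and the nonamer TTATTTATT in 4 of the 10 genes and in 7.98%. The 4 genes with the nonamer were *Tnf* (5 copies), *Csf2* (4), *Il2* (1) and *Lta* (1), and each was among the 7 genes called higher. The share called higher among all genes with the nonamer was not determined, and a link between the element and the calls was not tested. *Csf1*, *Tnfsf11* and *Tnfsf14* were called higher without the nonamer. *Ltb* and *Il16* had neither element, and *Tnfsf8* had 10 pentamers and no nonamer. The densest stretches are shown with the pentamers in capitals, at chr3:37120908-37120937 for *Il2*, chr17:35199679-35199708 for *Tnf*, chr17:35203404-35203433 for *Lta* and chr11:54247327-54247356 for *Csf2*, all on the minus strand.
Il2: ttttaaactATTTAtctgaaattATTTAtt
Tnf: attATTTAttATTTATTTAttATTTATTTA
Lta: tatggagagaaaagttaagttATTTATTTA
Csf2: tttaaatATTTATTTATTTATTTATTTAtt

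None of 8 genes for proteins that act on such RNA (*Zfp36*, *Zfp36l1*, *Zfp36l2*, *Zc3h12a*, *Rc3h1*, *Rc3h2*, *Elavl1* and *Khsrp*) was past the threshold in limma, and 1 was higher at an unadjusted p under 0.05. *Zfp36*, which encodes tristetraprolin, had 230 ± 76.1 FPKM in flow-through libraries and 228 ± 58.4 FPKM in IL-18Rαhi ones. With the mouse as a block 1 was called higher, *Zfp36l1* (log2 fold change 0.32, limma adjusted p = 0.012).

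Of 8 NFAT and NF-κB genes, 5 were higher and 0 lower (14.1% and 13.7% of all genes tested). *Nfatc2*, which encodes an NFAT protein already present in resting T cells, went from 8.94 ± 2.07 to 22.4 ± 1.07 FPKM (log2 fold change 1.26, adjusted p = 0.0015 by limma, SE 0.15). *Nfatc1* (0.73), *Rel* (0.59), *Nfatc3* (0.41) and *Nfkb1* (0.30) had smaller changes, and *Rela* was at 0.03. *Rel* lost its call without IL-18Rαhi replicate 2, 3 or 4 or flow-through replicate 3 (limma adjusted p = 0.089, 0.092, 0.10 and 0.093), and *Nfkb1* lost it without flow-through replicate 1 (0.051). After T-cell scaling *Nfatc2* (0.94) was the 1 gene of the list still called, where all genes had shifted by -0.31.

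The receptors of these cytokines were measured in the same libraries, which does not show that they are made by the same cells. Of 15 receptor genes 13 reached 1 FPKM, of which 6 were higher and 0 lower, and with the mouse as a block 10 were higher. The shares of all genes called higher were 14.1% and, with the block, 22.2%. For interleukin-2, *Il2ra*, the chain that gives high affinity, went from 3.57 ± 1.5 to 15.6 ± 4.36 FPKM (log2 fold change 1.90, adjusted p = 0.0039 by limma, SE 0.31). *Il2rb*, the signaling chain, went from 132 ± 29.1 to 332 ± 9.81 FPKM (1.35, adjusted p = 0.0012 by limma, SE 0.16). The shared chain *Il2rg* was at 341 ± 88.6 and 427 ± 22.7 FPKM and did not pass (0.37, limma adjusted p = 0.18). All IL-18Rαhi libraries were above all flow-through libraries for *Il2ra* and *Il2rb*.

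For TNF and lymphotoxin α, *Tnfrsf1b*, which encodes TNFR2, was higher (26.6 ± 6.51 against 53.2 ± 6.44 FPKM, log2 fold change 1.00, limma adjusted p = 0.0059), and *Tnfrsf1a*, which encodes TNFR1, was not past the threshold (0.45, limma adjusted p = 0.17) except with the mouse as a block (0.017). The CD30 gene *Tnfrsf8* went from 1.22 ± 0.339 to 3.17 ± 0.525 FPKM (0.92, limma adjusted p = 0.0044), while its ligand *Tnfsf8* was not called. The receptors of LIGHT were not called, with *Tnfrsf14* (HVEM) at -0.49 (limma adjusted p = 0.19) and *Ltbr* at -0.09 (0.82). *Tnfrsf14* stood at 70.8 FPKM in flow-through replicate 1, whereas all remaining libraries had 24.4 to 34.6 FPKM. The RANK gene *Tnfrsf11a* was below the filter, at 0.0724 ± 0.0779 and 0.603 ± 0.248 FPKM. The receptors of M-CSF and GM-CSF, *Csf1r* (0.52), *Csf2ra* (0.64) and *Csf2rb* (0.78), passed only with the mouse as a block (limma adjusted p = 0.0027, 0.0024 and 0.00069). The genes *Cd4* (1.46, limma adjusted p = 0.017) and *Cd9* (0.96, limma adjusted p = 0.0084), whose products have been reported to bind interleukin-16, were higher. *Cd4* averaged 0.662 FPKM in the flow-through and entered the test only through its IL-18Rαhi values.

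The remaining ligands of the TNF family and further T-cell cytokines were read from lists. Of 12 other TNF-family ligands 7 reached 1 FPKM, and 3 were higher and 0 lower, or 5 with the mouse as a block. The shares of all genes called higher were 14.1% and 22.2%. Of the ligands that the block added, *Tnfsf12* (means 0.759 and 1.8 FPKM) passed the filter only through its IL-18Rαhi values. *Cd40lg*, the CD40 ligand that licenses dendritic cells and B cells, went from 3.13 ± 0.995 to 15.6 ± 1.44 FPKM (log2 fold change 2.04, adjusted p = 0.00042 by limma, SE 0.18), a larger value than that of any of the 10 genes. *Tnfsf10*, which encodes the death ligand TRAIL, changed by 1.25 (limma adjusted p = 0.0021) and *Tnfsf9*, the 4-1BB ligand, by 0.82 (limma adjusted p = 0.0010), the latter not past the threshold after T-cell scaling (0.063). Of 13 other T-cell cytokines 3 reached 1 FPKM, and *Ifng* was higher (8.86 ± 2.85 against 23.7 ± 4.34 FPKM, 1.35, limma adjusted p = 0.0035), while *Il4* (0.03) and *Tgfb1* (0.18) were not called, the latter except with the mouse as a block (limma adjusted p = 0.047). *Il3* and *Il9* were listed at 0 in every library.

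Among 4 measured genes for enzymes and partners that cut these ligands from the membrane, 2 were higher and 1 lower (14.1% and 13.7% of all genes tested). *Adam17*, the TNF-converting enzyme, went from 20.1 ± 0.986 to 26.8 ± 1.81 FPKM (log2 fold change 0.40, limma adjusted p = 0.0070), although not after T-cell scaling (0.06, limma adjusted p = 0.84). *Rhbdf2*, whose product iRhom2 brings ADAM17 to the cell surface, went from 9.28 ± 1.37 to 20.6 ± 1.64 FPKM (1.08, limma adjusted p = 0.00076). *Mmp14*, a membrane protease reported to cut RANKL, was lower (15.0 ± 6.67 against 2.55 ± 1.05 FPKM, -2.14, limma adjusted p = 0.0023).

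**Figure D5:**
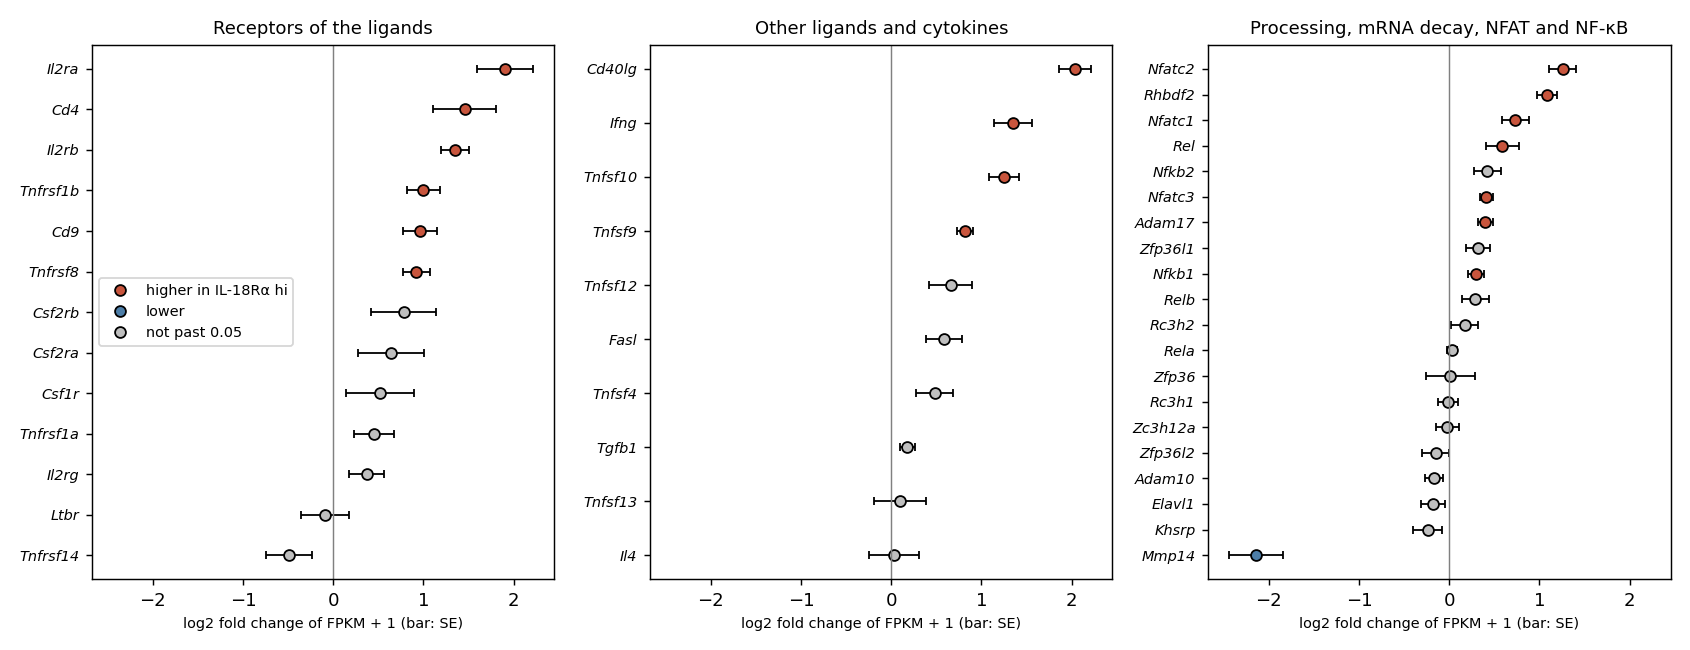
Log2 fold change of FPKM + 1 (x axis, IL-18Rαhi over flow-through, bars are the SE) of the measured receptors, further ligands and cytokines, and processing, RNA-decay and transcription-factor genes. *Cd40lg* and *Il2ra* have the highest values and *Mmp14* the lowest, and the 8 RNA-decay genes lie between -0.24 and 0.32.

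Markers of cells other than CD8 T cells also differed between the fractions. For comparison, 14.1% of all genes tested were called higher and 13.7% lower, and 22.2% were called higher with the mouse as a block. All 4 CD4 T-cell genes were higher, with a summed level of 11.3 to 19.6 FPKM in the flow-through and 43.9 to 68.4 FPKM in the IL-18Rαhi libraries, and *Foxp3* and *Cd4* were highest in IL-18Rαhi replicate 4 (19.0 and 7.90 FPKM). Of 8 dendritic-cell genes 7 were higher (summed 17.4 to 30.4 against 45.1 to 91.9 FPKM). Of 10 measured NK-cell genes 7 were higher (110 to 298 against 308 to 601 FPKM), or 9 with the mouse as a block. For γδ and type 17 T cells 7 of 11 genes were higher (76.6 to 106 against 118 to 246 FPKM), or 10 with the block. After T-cell scaling, 4 CD4 T-cell, 6 dendritic-cell, 6 NK-cell and 6 γδ and type 17 genes were higher (4.46% of all genes tested). Without flow-through replicate 1 these counts were 4, 6, 7 and 6 (14.1%). As with *Cd4*, the called genes *Klra8*, *Klra9*, *Klri2*, *Il23r*, *Xcr1* and *Adgre1* averaged under 1 FPKM in the flow-through and passed the filter only through the fraction in which they were higher. The same holds for *Sox13*, called only with the block (means 0.787 and 1.37 FPKM).

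The list for lymphoid tissue inducer cells, which are a known source of *Ltb*, *Lta* and *Tnfsf11*, had 4 of 8 genes higher and 1 lower, or 5 and 2 with the block (151 to 256 against 407 to 508 FPKM). Most of the IL-18Rαhi sum came from *Id2* (61.1 to 126 against 292 to 356 FPKM). *Kit* was the gene called lower (32.3 ± 4.02 against 14.4 ± 2.28 FPKM), and *Cxcr5*, *Il7r* and *Tox* were not called in the fit without the block. After T-cell scaling 4 were higher and 2 lower, and without flow-through replicate 1 these counts were 4 and 1. Of 11 myeloid genes 4 were higher (510 to 2690 against 805 to 3610 FPKM), with overlapping sums, and with the block 8 were higher and 1 lower. After T-cell scaling 2 myeloid genes were higher, and without flow-through replicate 1 also 2, with the calls of *Lyz2* and *Adgre1* lost in both. B-cell genes had 1 of 7 higher (2 higher and 1 lower with the block), and mast-cell and basophil genes 2 of 8 higher and 2 lower (4 and 2). *Cr2*, the B-cell gene lower with the block, averaged 0.679 FPKM in IL-18Rαhi libraries and passed the filter only through its flow-through values. By limma 0 of 8 erythroid genes were higher, also at an unadjusted p under 0.05, and 2 were lower, or 5 with the block. Of the T-cell identity genes 1 of 8 was higher, *Zap70*. Like the 1 of 7 B-cell genes, this count is near the 14.1% of all genes called higher. The call of *Zap70* was lost without any 1 of the IL-18Rαhi libraries or flow-through replicate 3. Those of the marker genes *Lyz2*, *Adgre1*, *Mcpt8*, *Prss34*, *Gata1* and *Gata2* were lost without IL-18Rαhi replicate 4 or flow-through replicate 3. None of the marker genes of any list was at 0 in all libraries. The sums of the CD4 T-cell, dendritic-cell, NK-cell, γδ and type 17 and lymphoid tissue inducer lists were higher in every IL-18Rαhi library than in any flow-through library, like the non-overlapping cytokine genes, and their part in the cytokine differences was not tested. The sum of the lymphoid tissue inducer list rested largely on *Id2*.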

How the data were processed

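RNA of 8 libraries (4 IL-18Rαhi-enriched and 4 flow-through, grouped by the sample labels) was sequenced as 150-base paired ends from stranded poly(A) libraries. The deposited values are FPKM, which the authors made with TopHat and Cufflinks 2.1.1 on mm10. The annotation release is not given in the sources used here. Cufflinks values are not whole reads, so depth was estimated from single-transcript genes under 0.2 FPKM, and no count model was used. Corrections for multi-mapped reads and fragment bias were applied, and other settings were defaults, under which Cufflinks ignores strand.

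Tests used limma 3.58.1 (R 4.3.3) with a variance trend on log2(FPKM + 1), without a mouse block, on genes averaging 1 FPKM or more. Log2 fold changes understate those of low genes. The block, a pseudocount of 0.1, other filters, median-ratio and T-cell scaling, no trend and leaving out each library were alternatives. Both fractions came from the same mouse, and deviations of same-numbered libraries correlated by 0.66, 0.59, 0.31 and 0.47. Ratios used exact two-sided permutation. The script was tested on simulated data.

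The 10 genes and the lists (other TNF-family ligands and T-cell cytokines, receptors, processing, RNA decay, NFAT and NF-κB, and marker genes) were chosen with earlier results of these data known. Named were the 10 genes, up to 4 called genes per list with the largest change, receptors, and genes of the *Tnf* locus, with others chosen after their values were seen. Gene identifiers matched GENCODE M21 at 98.9%. One gene of the processing list is not reported here and was left out of its counts.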

Additional observations from a re-analysis of the deposited data

Results flagged for a closer look

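In 1 of the 24 groups examined, a library lay far from the others by Dixon's 95% limit. *Tnfsf11* was at 1.05 FPKM in flow-through replicate 1, while flow-through replicates 2 to 4 had 2.14 to 2.32 FPKM. Chance flags about 1 group in 20, or 1.2 of the 24.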

How the results depend on the processing

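The calls of *Il2*, *Tnf*, *Tnfsf11* and *Tnfsf14* held in each alternative that tested them, and those of *Lta*, *Csf1* and *Csf2* did not. Over all genes, 2705 were higher and 2763 lower with the mouse as a replicate block, and 542 and 1085 after T-cell scaling. Leaving out 1 library gave 1124 to 1802 higher genes, fewest without IL-18Rαhi replicate 2, and 940 to 1781 lower genes, fewest without flow-through replicate 3. It left 4 to 7 of the 10 cytokine genes higher, with 4 when IL-18Rαhi replicate 4 was left out. A filter at a mean of 5 FPKM left 3 higher, because it removed the low genes, and T-cell scaling left 4. Without a filter *Csf1* (limma adjusted p = 0.08) and *Csf2* (0.066) were lost.

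With the mouse as a block, the log2 difference of the ratio of *Ltb* to *Lta* stayed at -0.96 and its exact sign-flip p was 0.125, the smallest possible. It was -1.05 to -0.88 when 1 library was left out, and that of *Tnf* to *Lta* was -0.07 to 0.14, below 0 (-0.03) also without flow-through replicate 4. The block changed no call of the 10 genes.

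Uncalled values changed sign in *Il16* (-0.04) and *Ltb* (-0.29) after T-cell scaling, in *Ltb* without flow-through replicate 1 (-0.12), in *Tnfsf8* without flow-through replicate 2 (0.07) or 4 (0.08) or IL-18Rαhi replicate 1 (0.03), and in *Ltbr* without flow-through replicate 2 (0.06) or IL-18Rαhi replicate 1 (0.10). Over the fits that left out 1 library the range was -0.23 to 0.08 for *Tnfsf8*, -0.27 to 0.10 for *Ltbr* and -0.12 to 0.16 for *Ltb*. The causes were not tested. Estimated fragment counts limit *Csf2* and *Il2* most.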
